A study of Mus musculus with 22 samples.

Results

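A list of 43 genes of mitosis and G2/M was followed by gene symbol in liver nuclear RNA, of 24197 RefSeq genes in the deposited table, and all 43 were found. The mice were CD-1 (ICR), 7 weeks old by the labels. TCPOBOP, an agonist of CAR, was injected at 3 mg/kg into males and females, with liver taken 3 h or 27 h later, and each of these 4 groups had its own group injected with vehicle, 1% DMSO in corn oil. PCN, which activates the nuclear receptor PXR, was injected at 50 mg/kg into males only, with liver taken at 3 h, beside its own vehicle group. The 8 groups of the TCPOBOP set had 2 pools each and the 2 groups of the PCN set had 3 pools each, 22 pools in all, and a pool mixed the liver nuclei of 4 mice at 3 h and of 3 mice at 27 h. RNA was poly(A)-selected. A mouse is therefore never seen alone, and the nuclei come from all cell types of the liver.

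Cells that commit to division switch on a common programme in G2 and mitosis. Cyclin-dependent kinase 1 and its cyclins drive entry, the Aurora and Polo-like kinases build the spindle, the spindle checkpoint holds the chromosomes until all are attached, the anaphase-promoting complex releases the sister chromatids, and the midzone factors part the daughter cells. Adult liver is mostly quiescent, so these transcripts are known to be scarce there, and their rise is the usual RNA sign of hepatocytes or other liver cells entering mitosis. In mouse liver, agonists of the nuclear receptor CAR are known to induce drug-metabolizing enzymes and also to drive hepatocyte division.

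Levels are given as FPKM, read fragments corrected for the counted length of a gene and for library depth, which allows levels of different genes to be compared. The authors deposited 1 mean FPKM per group, a ratio and an adjusted p-value, but no value per pool. The whole number of reads behind each mean could be recovered for all 43 genes in all 22 pools, as set out under the processing, and the recovered pools return each printed mean of the 43 genes within 5e-11 FPKM. Pools are named a, b and c by falling depth and cannot be matched to pool numbers in the labels. In the TCPOBOP set a pool held 25398327 to 46684341 mapped fragments, and PCN-set pools were shallower on the whole, at 19048304 to 31886282. No label says whether the mice of different pools were treated together. What spread the authors' adjusted p-values measure is not given in the sources used here. The calls used throughout, raised or lowered, are those with an adjusted p below 0.05 in the authors' deposited table. A limma-voom fit to the recovered reads, chosen after the values were seen, gave standard errors over pools and tests of differences between responses. It called a gene at an adjusted p below 0.05 over all genes fitted. The limma-voom p-values measure the spread between pools within groups, taken over all pools of a set.

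Cyp2b10, the classical CAR target, stood between 0.471 and 3.19 FPKM in the 8 vehicle pools of the TCPOBOP set and between 82.3 and 128 FPKM in the 8 TCPOBOP pools. Cyp3a11, the classical PXR target, rose 8.82-fold with PCN in the authors' deposited table. Of the marker lists for cell types of the liver, the hepatocyte genes summed to 1349 to 2312 FPKM over the 10 groups, with none of the 6 genes at 0. Markers of Kupffer, sinusoidal endothelial, stellate, bile duct, lymphoid, granulocyte and erythroid cells were detected as well, and which of these cells carried the mitotic RNA was not tested.

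Many promoters of G2/M genes are known to carry CCAAT boxes, bound by NF-Y, and a cell cycle homology region of the form TTTGAA or TTCGAA, read by the DREAM and MuvB complexes. The promoters of the 5 members with the largest male 27 h ratio among those with an entry are shown with that of Bub3, which had the smallest, so that the strongest risers can be read beside a member that was not called. They come from RefSeq on GRCm38.p6, run 5′ to 3′ from 150 bases before the first listed transcript start to 30 bases after it, and have the CCAAT box and both forms of the homology region, on either strand, in capitals.
Cdc20 (chr4:118437314-118437493, minus strand): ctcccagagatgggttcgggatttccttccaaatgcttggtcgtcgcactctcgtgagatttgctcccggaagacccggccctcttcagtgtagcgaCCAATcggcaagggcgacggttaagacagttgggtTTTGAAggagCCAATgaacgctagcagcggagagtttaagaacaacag
Ccnb1 (chr13:100786457-100786636, minus strand): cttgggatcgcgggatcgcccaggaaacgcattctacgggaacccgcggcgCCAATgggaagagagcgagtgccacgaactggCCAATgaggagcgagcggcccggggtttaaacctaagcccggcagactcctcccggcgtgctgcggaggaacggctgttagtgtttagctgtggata
Aurka (chr2:172370541-172370720, minus strand): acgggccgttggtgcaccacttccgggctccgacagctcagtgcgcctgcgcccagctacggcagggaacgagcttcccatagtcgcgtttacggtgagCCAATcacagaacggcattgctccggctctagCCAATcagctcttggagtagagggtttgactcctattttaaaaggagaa
Ect2 (chr3:27153849-27154028, minus strand): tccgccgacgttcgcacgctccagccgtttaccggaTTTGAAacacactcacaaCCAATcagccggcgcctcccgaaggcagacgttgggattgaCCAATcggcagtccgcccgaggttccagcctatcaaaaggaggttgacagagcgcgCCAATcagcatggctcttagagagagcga
Ttk (chr9:83834539-83834718, plus strand): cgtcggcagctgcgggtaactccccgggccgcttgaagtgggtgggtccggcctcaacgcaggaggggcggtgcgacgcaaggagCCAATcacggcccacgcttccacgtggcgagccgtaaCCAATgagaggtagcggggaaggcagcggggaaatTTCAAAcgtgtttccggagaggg
Bub3 (chr7:131560220-131560399, plus strand): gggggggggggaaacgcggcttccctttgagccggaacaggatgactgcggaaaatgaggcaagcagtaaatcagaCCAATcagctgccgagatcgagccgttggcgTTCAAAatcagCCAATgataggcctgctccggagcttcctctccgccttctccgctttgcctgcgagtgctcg

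All 6 promoters hold at least 2 CCAAT boxes close to the start. Cdc20 has them at -53 and -8, counted to the first base of the motif with the base before the start as -1, and a TTTGAA at -18 between them. Ccnb1 has CCAAT at -99 and -67 and neither TTTGAA nor TTCGAA in the window. In Aurka the TTTGAA lies at 33, just past the printed stretch. Bub3 has CCAAT at -74 and -32 and TTTGAA on the opposite strand at -43, as the risers other than Ccnb1 have in some arrangement.

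Over the window of 250 bases before to 50 after the start, 35 of the 43 members had an entry, with 38 promoters between them. CCAAT was searched on both strands and was held by 31 of the 38 promoters, beside 37.4% of the 32851 promoters of all genes. TTTGAA was held by 29 of the 38, beside 17.9% of all promoters, and TTCGAA by 4 of the 38, beside 1.56%. CCAAT together with TTTGAA or TTCGAA stood in 29 of the 38 promoters, beside 7.52% of all. The E2F motif TTTCCCGC was in 0 of the 38, beside 1.07% of all. Birc5, Mad2l1, Ncaph, Nusap1 and Pttg1 held neither CCAAT nor a homology region in the window.

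In vehicle liver the programme was barely on. Over the 8 vehicle pools of the TCPOBOP set the 43 genes summed to between 23.9 and 32.7 FPKM, and the median gene of a pool stood between 0.256 and 0.403 FPKM. Smc4, Bub3 and Cenpa, a condensin core subunit, a checkpoint protein and the centromeric histone, were the highest, with medians over these pools of 3.76, 3.28 and 3.10 FPKM. Cdc25c, the phosphatase that activates cyclin B-CDK1, was the lowest at a median of 0.0513 FPKM, from 0.0175 to 0.157. These levels rest on few reads: Cdc25c had 1 to 10 reads per vehicle pool of that set and Mki67 had 127 to 206. The PCN set vehicle pools summed to 15.9996 to 17.3 FPKM, lower than any vehicle pool of the TCPOBOP set, and the sets differ in their library preparation by the labels.

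**Figure D1:**
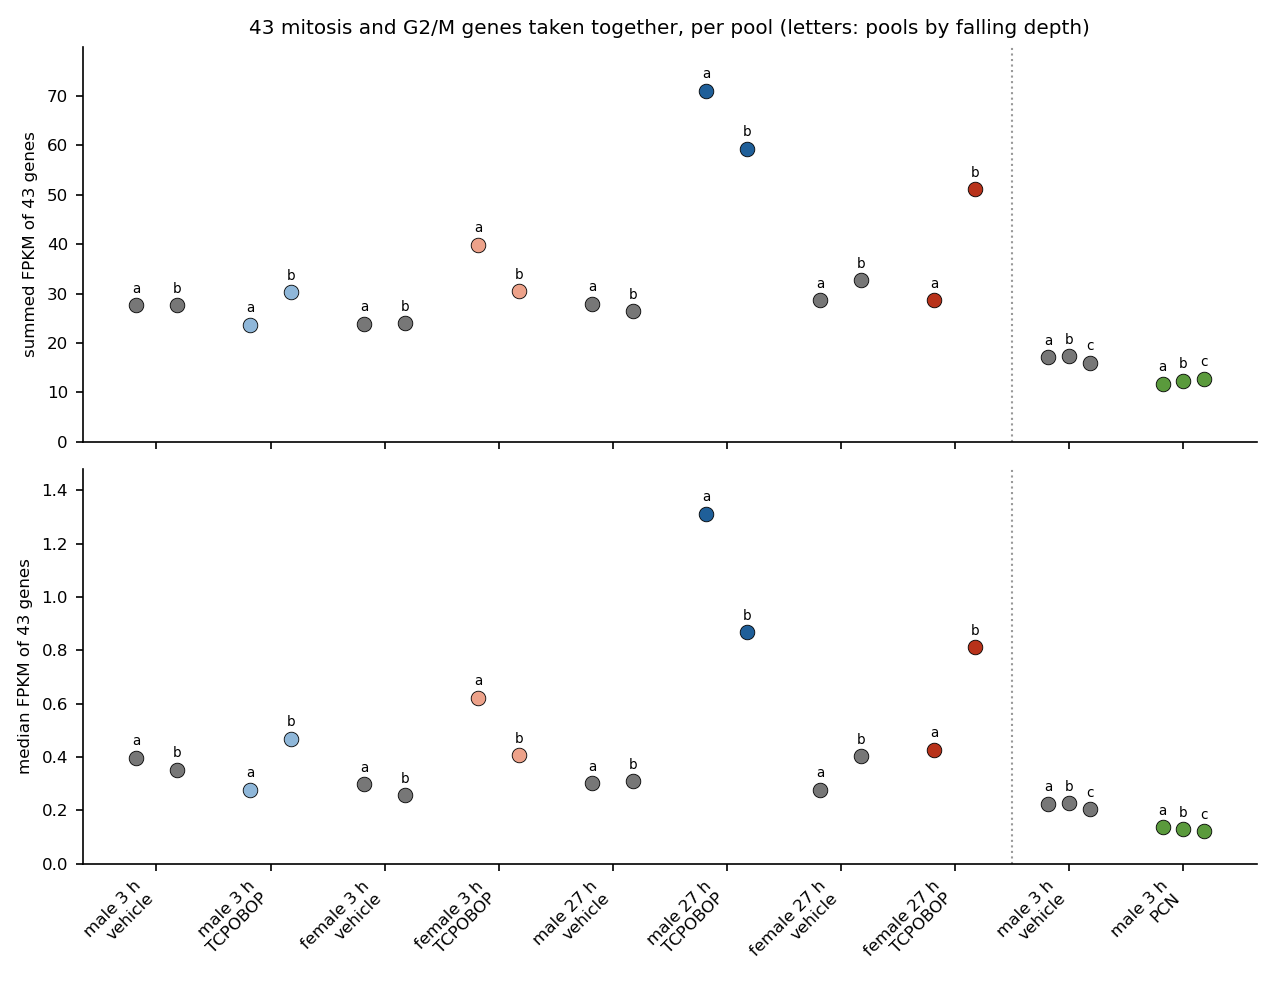
Summed (top) and median (bottom) FPKM of the 43 genes in each of the 22 pools, 1 point per pool, lettered by falling depth; grey points are vehicle and coloured points are treated. Both male 27 h TCPOBOP pools stand above every other pool, the 2 female 27 h TCPOBOP pools stand apart from each other at 28.7 and 51.2 FPKM summed, and the 3 PCN pools lie below their 3 vehicle pools.

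In males 27 h after TCPOBOP, 41 of the 43 genes rose in the authors' deposited table and none fell, with 6.46% of the 17981 genes with any reads called raised and 4.92% lowered in that comparison. The median log2 ratio of the 43 was 1.78 in the authors' deposited table, beside 0.000529 over the 14164 genes with a mean of at least 0.1 FPKM. The summed level went from 27.9 and 26.4 FPKM in the vehicle pools to 71.0 and 59.3 FPKM in the treated pools. Of the 43 genes, 36 were higher in treated pool a than in treated pool b, beside 49.6% of the genes fitted. In nuclei pooled from whole liver, more cells in mitosis and more of this RNA per cell cannot be told apart. Treated and vehicle pools did not overlap for any of the 43, with every treated pool above, beside 25% of the 14406 genes fitted with the treated pools above and 35.3% with them below. limma-voom called 38 of the 43 raised, beside 5.54% of the genes fitted, and 0 lowered, beside 4.27%. An unadjusted p below 0.05 was had by 42 of the 43, beside 26.2% of the genes fitted. With 1 pool left out the number called by limma-voom was 19 without treated pool a, 31 without treated pool b, 8 without vehicle pool a and 18 without vehicle pool b.

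**Figure D2:**
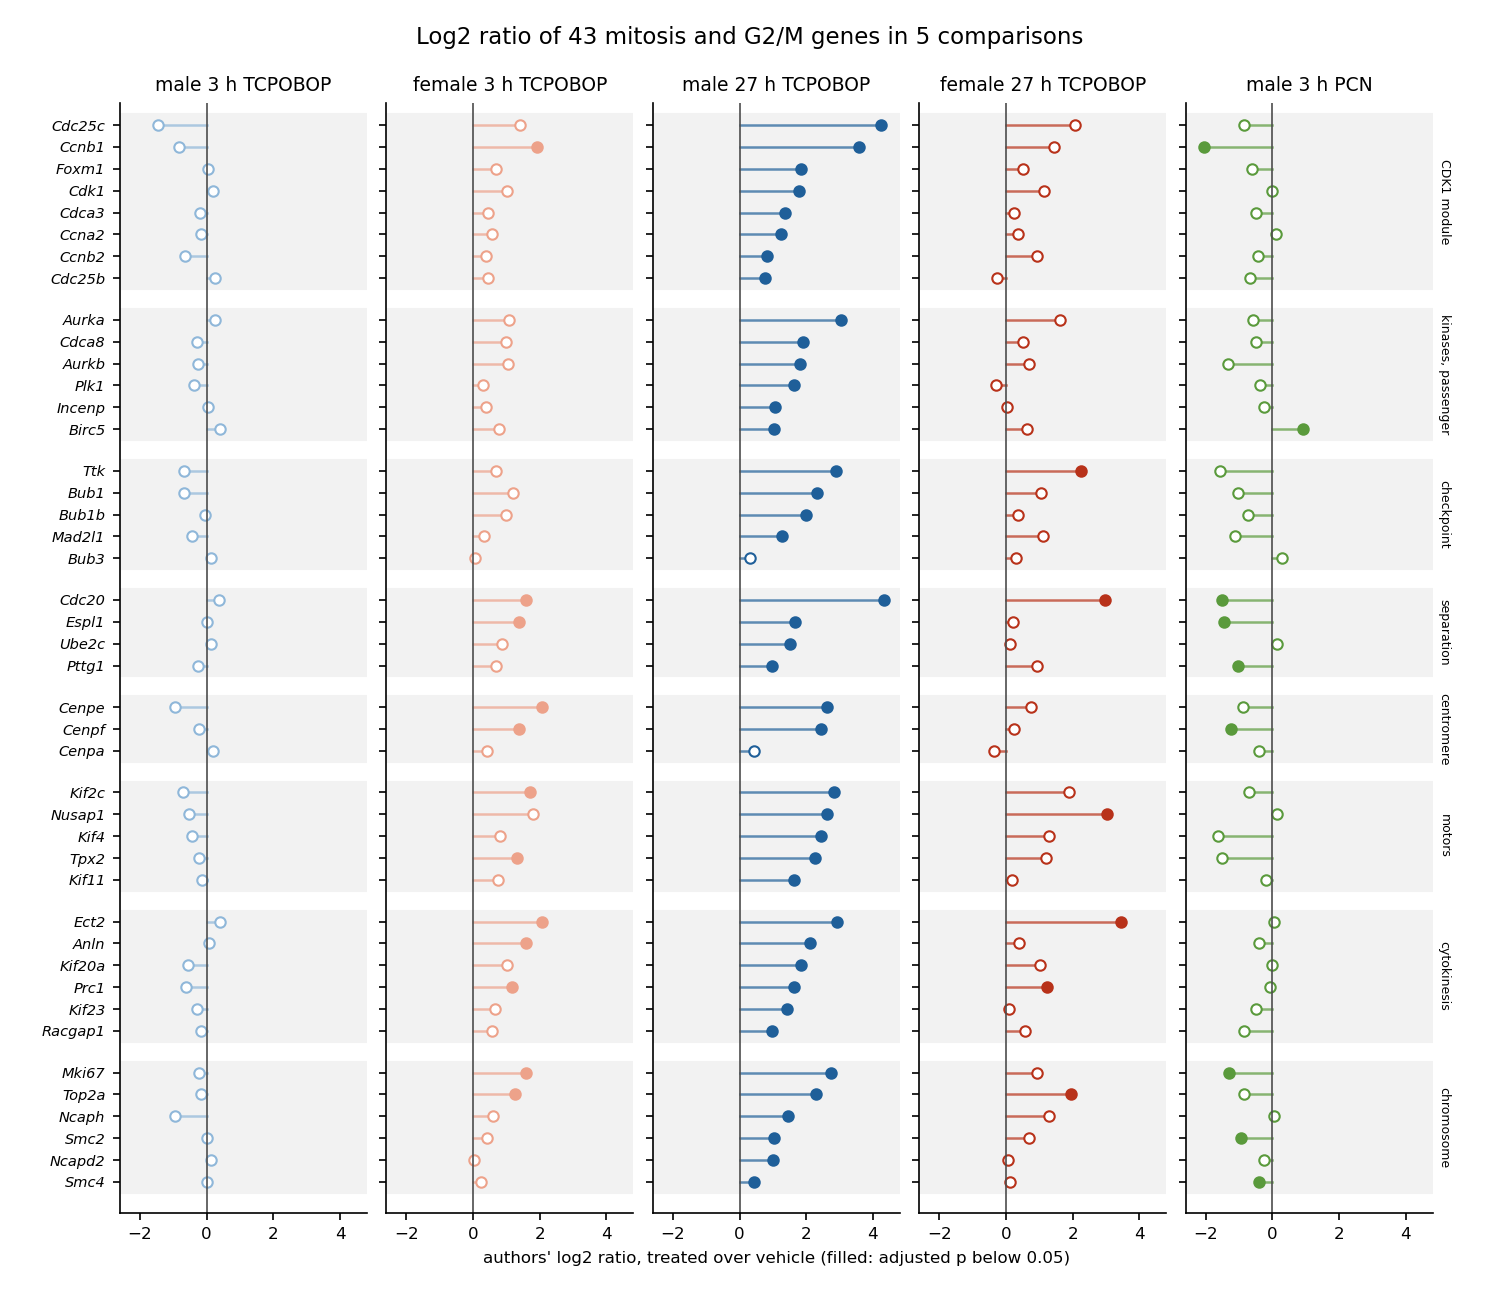
Log2 ratio of treated over vehicle from the authors' deposited table for the 43 genes, in rows grouped by role, in each of the 5 comparisons; filled points have an adjusted p below 0.05. In 27 h males all 43 points lie to the right of 0 and 41 are filled; in 3 h males none is filled; with PCN 36 lie to the left of 0.

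Cdc20, the activator of the anaphase-promoting complex (chr4:118105506-118109948 in mm9), had the largest ratio of the 43. It stood at 0.165 and 0.382 FPKM in the male vehicle pools at 27 h and at 5.98 and 4.09 in the TCPOBOP pools, so both treated pools lay far above both vehicle pools. In the authors' deposited table its log2 ratio was 4.32 (adjusted p = 1.28e-39), and by limma-voom the difference was 4.39 (SE 0.78, adjusted p = 0.00346). In females at 27 h the vehicle pools held 0.141 and 0.208 FPKM and the TCPOBOP pools 0.389 and 2.24. Both female treated pools were above both vehicle pools, and treated pool b was far above treated pool a. In males at 3 h the values were 0.513 and 0.405 FPKM with vehicle and 0.372 and 0.861 with TCPOBOP, and the groups overlapped. In females at 3 h they were 0.438 and 0.375 with vehicle and 1.56 and 0.772 with TCPOBOP, without overlap.

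Cyclin B1, Ccnb1 (chr13:101548694-101556441 in mm9), the main mitotic cyclin, stood at 0.0953 and 0.147 FPKM in the male 27 h vehicle pools and at 1.57 and 1.14 in the TCPOBOP pools. Its limma-voom difference was 3.53 on the log2 scale (SE 0.67, adjusted p = 0.00527). The male vehicle pools held more of it at 3 h, 0.461 and 0.327 FPKM, than at 27 h, and the 3 h TCPOBOP pools held 0.102 and 0.367. In females it was 0.175 and 0.151 FPKM with vehicle and 0.692 and 0.476 with TCPOBOP at 3 h, and 0.0361 and 0.144 with vehicle and 0.0620 and 0.406 with TCPOBOP at 27 h. The female 27 h groups overlapped, since treated pool a stayed between the vehicle pools.

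Mki67, the Ki-67 protein that coats mitotic chromosomes and the common marker of cycling cells (chr7:142881471-142908062 in mm9), had the most reads of the risers, 1077 and 902 in the male 27 h TCPOBOP pools. Those pools stood at 3.12 and 2.79 FPKM, above 0.423 and 0.507 in their vehicle pools, with a limma-voom log2 difference of 2.73 (SE 0.44, adjusted p = 0.0019). The female 27 h pools held 0.352 and 0.634 FPKM with vehicle and 0.563 and 1.22 with TCPOBOP, and these overlapped. At 3 h the male pools held 0.621 and 0.703 with vehicle and 0.298 and 0.837 with TCPOBOP, which also overlapped. The female 3 h pools held 0.490 and 0.411 with vehicle and 1.76 and 0.848 with TCPOBOP, without overlap.

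Ect2, the exchange factor that activates RhoA at the cleavage furrow (chr3:26996144-27052800 in mm9), was high in the treated pools of both sexes at 27 h. The male pools held 0.149 and 0.289 FPKM with vehicle and 1.42 and 1.66 with TCPOBOP, and the female pools 0.142 and 0.0722 with vehicle and 1.03 and 1.34 with TCPOBOP. The 2 treated pools of a sex were close to each other and far from the vehicle pools in each case. limma-voom gave log2 differences of 2.99 in males (SE 0.36, adjusted p = 0.000181) and 3.48 in females (SE 0.48, adjusted p = 0.000262). At 3 h the female pools held 0.182 and 0.224 FPKM with vehicle and 0.938 and 0.679 with TCPOBOP, and the male pools 0.333 and 0.292 with vehicle and 0.297 and 0.563 with TCPOBOP. The female 3 h groups were apart and the male 3 h groups overlapped.

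**Figure D3:**
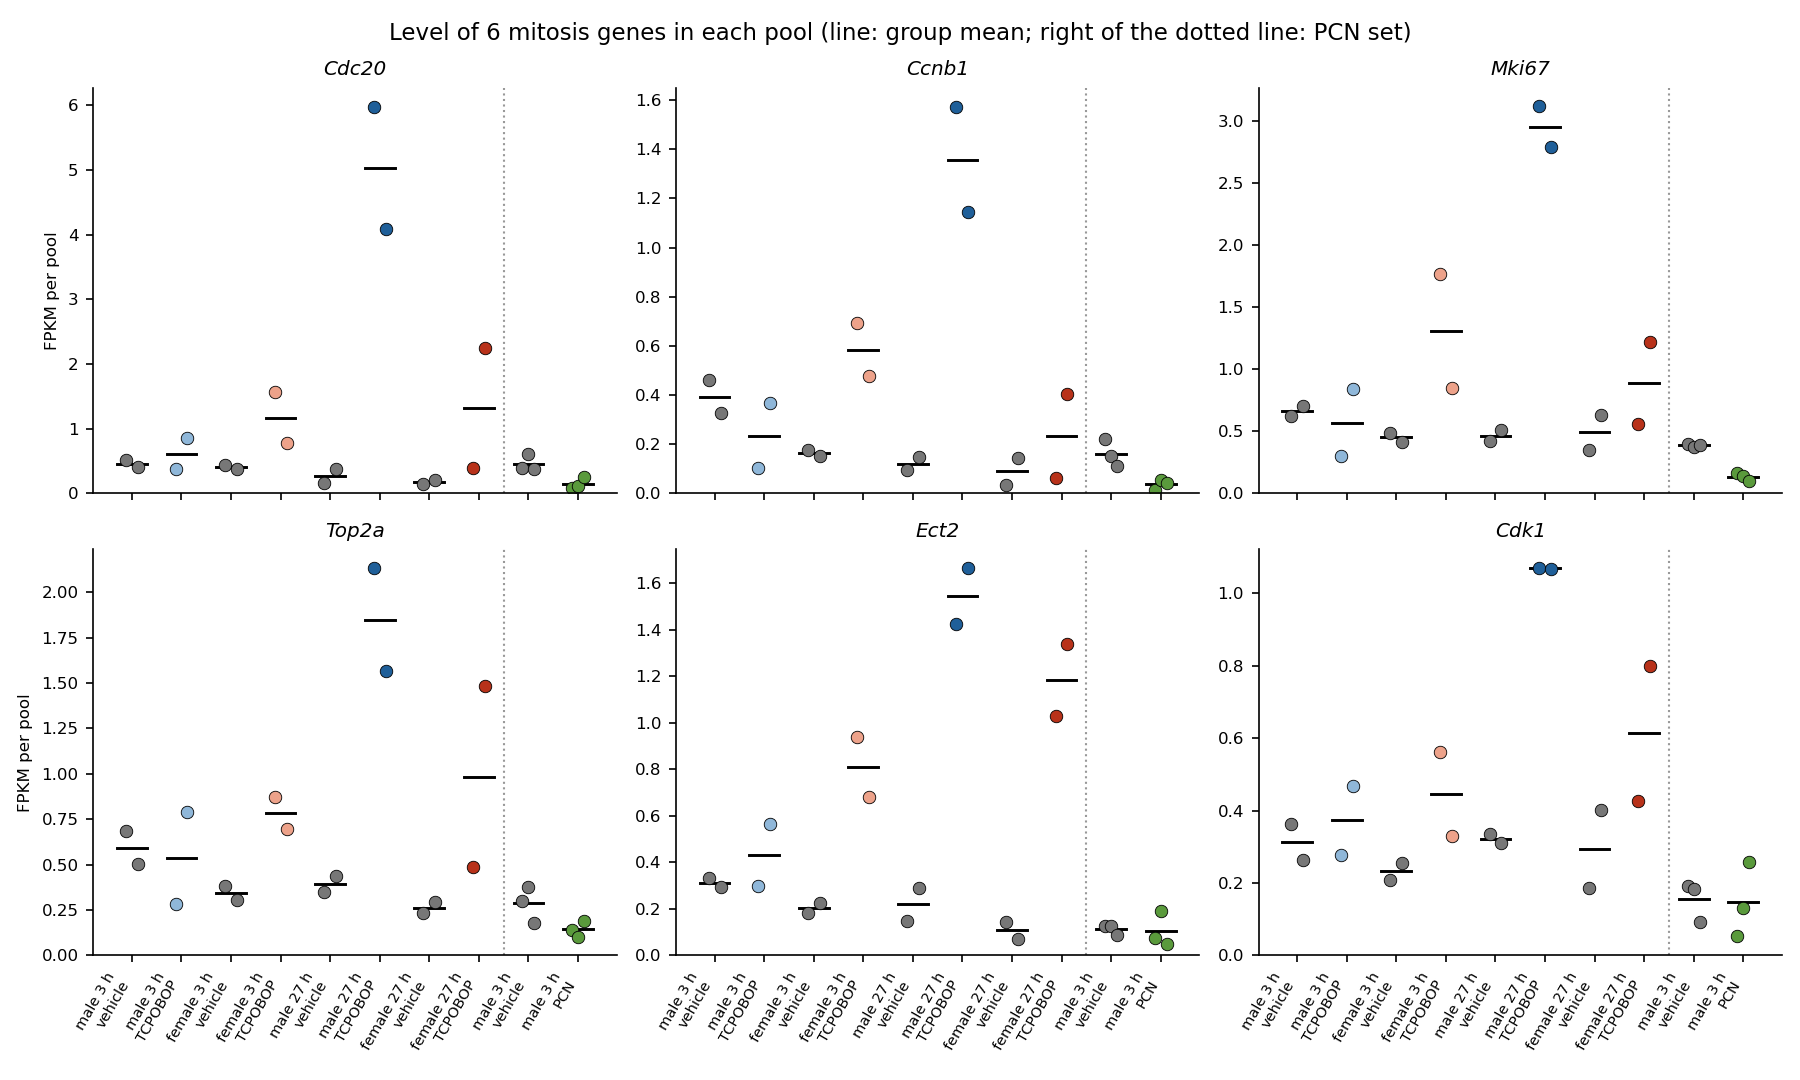
FPKM of Cdc20, Ccnb1, Mki67, Top2a, Ect2 and Cdk1 in each of the 22 pools, 1 point per pool with the group mean as a line; each axis starts at 0 and has its own scale. Both male 27 h TCPOBOP pools are above all other pools for each gene, and for Ect2 both female 27 h TCPOBOP pools come next.

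Of the 8 genes of the cyclin-dependent kinase 1 module and its transcription factor, all 8 rose in 27 h males, 1 rose in 3 h females and 1 fell with PCN in the authors' deposited table, and 0 were called in 27 h females or 3 h males. In the sentences that follow, each pair of values is the authors' mean FPKM in vehicle and in treated pools. Cdk1, the kinase itself, stood at 0.322 and 1.07 FPKM for males at 27 h, 0.294 and 0.613 for females at 27 h, 0.314 and 0.373 for males at 3 h, 0.232 and 0.446 for females at 3 h and 0.156 and 0.147 in the PCN set. Ccna2, the S and G2 cyclin A2, stood at 0.515 and 1.18 FPKM for males at 27 h, 0.504 and 0.626 for females at 27 h, 0.515 and 0.463 for males at 3 h, 0.465 and 0.658 for females at 3 h and 0.644 and 0.606 in the PCN set. Its span overlaps that of Exosc9 by 863 bases, and in the PCN libraries, labelled unstranded, reads there cannot be told apart. The 2 cyclins differed in size of response, since the male 27 h log2 ratio in the authors' deposited table was 1.24 for Ccna2 and 3.57 for Ccnb1. Ccnb1 stood at 0.121 and 1.36 FPKM for males at 27 h, 0.0903 and 0.234 for females at 27 h, 0.394 and 0.234 for males at 3 h, 0.163 and 0.584 for females at 3 h and 0.162 and 0.0365 in the PCN set. Ccnb2, the second B-type cyclin, stood at 0.851 and 1.43 FPKM for males at 27 h, 0.410 and 0.752 for females at 27 h, 0.768 and 0.505 for males at 3 h, 0.532 and 0.657 for females at 3 h and 0.387 and 0.259 in the PCN set. Cdc25b, a phosphatase that starts CDK1 activation, stood at 0.491 and 0.810 FPKM for males at 27 h, 0.8998 and 0.713 for females at 27 h, 0.429 and 0.514 for males at 3 h, 0.466 and 0.605 for females at 3 h and 0.324 and 0.184 in the PCN set. Cdc25b and Ccnb2 had the smallest male 27 h ratios of the 8, and their adjusted p-values were 0.0302 and 0.0208 in the authors' deposited table. Cdc25c, its late-acting relative, stood at 0.0214 and 0.433 FPKM for males at 27 h, 0.0335 and 0.146 for females at 27 h, 0.149 and 0.0615 for males at 3 h, 0.0731 and 0.183 for females at 3 h and 0.0287 and 0.0138 in the PCN set. Its 27 h male pools held 2 and 1 reads with vehicle and 31 and 25 with TCPOBOP. Its treated pools thus held more reads than any other group of either set. Cdca3, which takes part in mitotic entry, stood at 1.22 and 3.03 FPKM for males at 27 h, 1.96 and 2.23 for females at 27 h, 1.26 and 1.12 for males at 3 h, 1.26 and 1.62 for females at 3 h and 0.705 and 0.463 in the PCN set. Foxm1, the transcription factor that activates many G2/M genes, stood at 0.208 and 0.729 FPKM for males at 27 h, 0.400 and 0.539 for females at 27 h, 0.201 and 0.215 for males at 3 h, 0.249 and 0.384 for females at 3 h and 0.175 and 0.101 in the PCN set, and its span overlaps that of 4933413G19Rik by 377 bases. Its own log2 ratio in 27 h males was 1.85 in the authors' deposited table, near the median of the list.

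All 6 mitotic kinases and passenger complex genes rose in 27 h males in the authors' deposited table, 0 were called in 27 h females or at 3 h with TCPOBOP, and Birc5 rose with PCN. Plk1, the Polo-like kinase of spindle assembly and mitotic exit, stood at 0.215 and 0.659 FPKM for males at 27 h, 0.414 and 0.322 for females at 27 h, 0.301 and 0.238 for males at 3 h, 0.330 and 0.390 for females at 3 h and 0.270 and 0.188 in the PCN set. Aurka, the Aurora kinase of the spindle poles, stood at 0.135 and 1.09 FPKM for males at 27 h, 0.129 and 0.395 for females at 27 h, 0.163 and 0.205 for males at 3 h, 0.168 and 0.335 for females at 3 h and 0.308 and 0.181 in the PCN set. Its female 27 h TCPOBOP pools held 0.109 and 0.681 FPKM and its vehicle pools 0.127 and 0.132, so 1 treated pool lay below both vehicle pools and the other far above. Aurkb, the kinase of the chromosomal passenger complex, stood at 0.308 and 1.02 FPKM for males at 27 h, 0.373 and 0.574 for females at 27 h, 0.232 and 0.202 for males at 3 h, 0.193 and 0.376 for females at 3 h and 0.121 and 0.0337 in the PCN set. Incenp, the scaffold of that complex, stood at 0.869 and 1.76 FPKM for males at 27 h, 1.62 and 1.57 for females at 27 h, 0.843 and 0.876 for males at 3 h, 0.834 and 1.04 for females at 3 h and 0.552 and 0.410 in the PCN set. The scaffold moved less than the kinase in 27 h males, with log2 ratios of 1.06 and 1.81 in the authors' deposited table. Birc5, survivin, stood at 0.970 and 1.94 FPKM for males at 27 h, 0.942 and 1.41 for females at 27 h, 0.780 and 1.02 for males at 3 h, 0.558 and 0.920 for females at 3 h and 0.467 and 0.788 in the PCN set. Cdca8, borealin, stood at 0.379 and 1.38 FPKM for males at 27 h, 0.494 and 0.676 for females at 27 h, 0.483 and 0.413 for males at 3 h, 0.388 and 0.741 for females at 3 h and 0.279 and 0.174 in the PCN set.

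Of the 5 spindle checkpoint genes, 4 rose in 27 h males in the authors' deposited table, and Ttk rose in 27 h females too. Ttk, the Mps1 kinase that starts checkpoint signalling, stood at 0.0869 and 0.628 FPKM for males at 27 h, 0.0745 and 0.346 for females at 27 h, 0.119 and 0.0745 for males at 3 h, 0.101 and 0.152 for females at 3 h and 0.0631 and 0.0183 in the PCN set. Bub1, a kinase docked at kinetochores, stood at 0.0873 and 0.431 FPKM for males at 27 h, 0.105 and 0.213 for females at 27 h, 0.130 and 0.0848 for males at 3 h, 0.0691 and 0.148 for females at 3 h and 0.0440 and 0.0207 in the PCN set. Bub1b, the BubR1 component of the checkpoint complex, stood at 0.150 and 0.578 FPKM for males at 27 h, 0.181 and 0.222 for females at 27 h, 0.172 and 0.176 for males at 3 h, 0.120 and 0.226 for females at 3 h and 0.0666 and 0.0337 in the PCN set. These 3 had male 27 h log2 ratios of 2.89, 2.33 and 1.99 in the authors' deposited table. Mad2l1, the Mad2 protein that holds back Cdc20, stood at 0.686 and 1.60 FPKM for males at 27 h, 0.404 and 0.865 for females at 27 h, 0.791 and 0.585 for males at 3 h, 0.493 and 0.582 for females at 3 h and 0.467 and 0.184 in the PCN set. Bub3, the partner that brings Bub1 and BubR1 to kinetochores, was among the most abundant members and was called in no comparison. Its pools stood at 3.01 and 3.36 FPKM with vehicle and 3.94 and 3.61 with TCPOBOP in 27 h males, and their adjusted p was 0.365 in the authors' deposited table. The 95% interval of its limma-voom log2 difference ran from -0.0087 to 0.62, below the value of every called spindle checkpoint gene.

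Of the 4 genes that release the sister chromatids, all 4 rose in 27 h males, 2 in 3 h females and 1 in 27 h females, and 3 fell with PCN, in the authors' deposited table. Cdc20 stood at 0.273 and 5.03 FPKM for males at 27 h, 0.175 and 1.32 for females at 27 h, 0.459 and 0.616 for males at 3 h, 0.406 and 1.17 for females at 3 h and 0.461 and 0.150 in the PCN set. Ube2c, the ubiquitin-conjugating enzyme of the anaphase-promoting complex, stood at 0.666 and 1.86 FPKM for males at 27 h, 1.34 and 1.39 for females at 27 h, 0.748 and 0.842 for males at 3 h, 0.695 and 1.22 for females at 3 h and 0.346 and 0.326 in the PCN set. Espl1, separase, the protease that cuts cohesin, stood at 0.128 and 0.396 FPKM for males at 27 h, 0.292 and 0.320 for females at 27 h, 0.149 and 0.156 for males at 3 h, 0.0999 and 0.250 for females at 3 h and 0.133 and 0.0430 in the PCN set. Separase was raised in females at 3 h but held 0.185 and 0.398 FPKM with vehicle and 0.271 and 0.370 with TCPOBOP at 27 h, where the groups overlapped. Pttg1, securin, the inhibitor of separase, stood at 1.31 and 2.44 FPKM for males at 27 h, 0.599 and 1.102 for females at 27 h, 1.27 and 1.095 for males at 3 h, 0.725 and 1.102 for females at 3 h and 0.763 and 0.324 in the PCN set. Securin's limma-voom difference in 27 h males was 0.93 (SE 0.35, adjusted p = 0.108), so it was called in the authors' deposited table alone.

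At the centromere, Cenpe and Cenpf rose in 27 h males and in 3 h females and Cenpf fell with PCN in the authors' deposited table, and Cenpa was called in no comparison. Cenpe, the kinesin that carries chromosomes to the spindle equator, stood at 0.102 and 0.598 FPKM for males at 27 h, 0.104 and 0.171 for females at 27 h, 0.219 and 0.117 for males at 3 h, 0.0869 and 0.347 for females at 3 h and 0.0769 and 0.0342 in the PCN set. Cenpf, a large protein of the outer kinetochore, stood at 0.114 and 0.602 FPKM for males at 27 h, 0.134 and 0.155 for females at 27 h, 0.192 and 0.167 for males at 3 h, 0.142 and 0.349 for females at 3 h and 0.0820 and 0.0310 in the PCN set. Neither was called in 27 h females, where the Cenpf pools overlapped at 0.148 and 0.120 FPKM with vehicle and 0.129 and 0.181 with TCPOBOP. Cenpa, the histone H3 variant that marks centromeres, stood at 4.23 and 3.34 FPKM with vehicle and 5.11 and 4.87 with TCPOBOP in 27 h males. In 27 h females it stood at 5.51 and 4.94 with vehicle and 2.93 and 4.91 with TCPOBOP, both treated pools below both vehicle pools. The adjusted p in the authors' deposited table was 0.0912 in males and 0.708 in females.

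All 5 spindle motors and microtubule factors rose in 27 h males in the authors' deposited table, 2 rose in 3 h females, and Nusap1 rose in 27 h females. Kif11, the Eg5 motor that pushes the spindle poles apart, stood at 0.180 and 0.534 FPKM for males at 27 h, 0.320 and 0.348 for females at 27 h, 0.245 and 0.227 for males at 3 h, 0.196 and 0.309 for females at 3 h and 0.0630 and 0.0505 in the PCN set. Kif2c, which takes microtubules apart at kinetochores, stood at 0.134 and 0.877 FPKM for males at 27 h, 0.0996 and 0.358 for females at 27 h, 0.214 and 0.133 for males at 3 h, 0.133 and 0.415 for females at 3 h and 0.174 and 0.0928 in the PCN set. Kif4, a motor on chromosome arms, stood at 0.0830 and 0.438 FPKM for males at 27 h, 0.0967 and 0.235 for females at 27 h, 0.135 and 0.103 for males at 3 h, 0.104 and 0.176 for females at 3 h and 0.0703 and 0.0194 in the PCN set. Kif11 was the least responsive of the 5 in 27 h males and Kif2c the most. Tpx2, the activator of Aurora A on the spindle, stood at 0.199 and 0.917 FPKM for males at 27 h, 0.167 and 0.373 for females at 27 h, 0.277 and 0.244 for males at 3 h, 0.202 and 0.482 for females at 3 h and 0.0945 and 0.0294 in the PCN set. Nusap1, which bundles spindle microtubules, stood at 0.0718 and 0.428 FPKM for males at 27 h, 0.0220 and 0.182 for females at 27 h, 0.134 and 0.0971 for males at 3 h, 0.0588 and 0.194 for females at 3 h and 0.189 and 0.186 in the PCN set. Nusap1 had 2 reads in each female 27 h vehicle pool and 10 and 25 in the treated pools, and its span overlaps that of Oip5 by 208 bases.

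All 6 midzone and cytokinesis genes rose in 27 h males in the authors' deposited table, 3 rose in 3 h females and 2 in 27 h females. Prc1, which bundles the microtubules of the midzone, stood at 0.614 and 1.84 FPKM for males at 27 h, 0.455 and 1.02 for females at 27 h, 0.790 and 0.526 for males at 3 h, 0.516 and 1.098 for females at 3 h and 0.417 and 0.362 in the PCN set. Ect2 stood at 0.219 and 1.54 FPKM for males at 27 h, 0.107 and 1.18 for females at 27 h, 0.313 and 0.430 for males at 3 h, 0.203 and 0.808 for females at 3 h and 0.114 and 0.105 in the PCN set. Both were called in the 3 comparisons with a rise, and both were called by limma-voom in 27 h females. Kif20a, the motor that moves the passenger complex to the midzone, stood at 0.270 and 0.922 FPKM for males at 27 h, 0.198 and 0.391 for females at 27 h, 0.332 and 0.233 for males at 3 h, 0.270 and 0.520 for females at 3 h and 1.05 and 0.924 in the PCN set. Its span overlaps that of Cdc23 by 1595 bases. Kif23, a motor of the centralspindlin complex, stood at 0.270 and 0.700 FPKM for males at 27 h, 0.460 and 0.467 for females at 27 h, 0.3003 and 0.254 for males at 3 h, 0.226 and 0.339 for females at 3 h and 0.118 and 0.0783 in the PCN set. Racgap1, its partner in centralspindlin, stood at 1.083 and 2.03 FPKM for males at 27 h, 0.944 and 1.34 for females at 27 h, 1.06 and 0.956 for males at 3 h, 0.911 and 1.29 for females at 3 h and 0.192 and 0.0950 in the PCN set. Anln, anillin, which links the contractile ring to the membrane, stood at 0.138 and 0.580 FPKM for males at 27 h, 0.214 and 0.275 for females at 27 h, 0.170 and 0.187 for males at 3 h, 0.105 and 0.297 for females at 3 h and 0.0894 and 0.0597 in the PCN set. The female 27 h TCPOBOP pools of Anln stood at 0.0971 and 0.453 FPKM on either side of the vehicle pools at 0.242 and 0.185.

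All 6 chromosome structure and surface genes rose in 27 h males in the authors' deposited table, Mki67 and Top2a rose in 3 h females, Top2a rose in 27 h females, and Mki67, Smc2 and Smc4 fell with PCN. Top2a, the topoisomerase that untangles sister chromatids, stood at 0.392 and 1.85 FPKM for males at 27 h, 0.264 and 0.984 for females at 27 h, 0.592 and 0.536 for males at 3 h, 0.344 and 0.783 for females at 3 h and 0.286 and 0.143 in the PCN set. Mki67 stood at 0.465 and 2.95 FPKM for males at 27 h, 0.493 and 0.890 for females at 27 h, 0.662 and 0.567 for males at 3 h, 0.450 and 1.31 for females at 3 h and 0.388 and 0.134 in the PCN set. These 2 had the largest male 27 h ratios of the 6. Ncapd2, a subunit of condensin I, stood at 0.769 and 1.48 FPKM for males at 27 h, 1.55 and 1.54 for females at 27 h, 0.855 and 0.947 for males at 3 h, 0.943 and 0.920 for females at 3 h and 0.699 and 0.526 in the PCN set. Ncaph, its kleisin, stood at 0.314 and 0.839 FPKM for males at 27 h, 0.257 and 0.618 for females at 27 h, 0.326 and 0.172 for males at 3 h, 0.182 and 0.257 for females at 3 h and 0.137 and 0.130 in the PCN set. Both belong to the complex that compacts mitotic chromosomes. Smc2, a core subunit of both condensins, stood at 0.479 and 0.937 FPKM for males at 27 h, 0.408 and 0.644 for females at 27 h, 0.428 and 0.444 for males at 3 h, 0.382 and 0.486 for females at 3 h and 0.254 and 0.113 in the PCN set. Smc4, the other core subunit, stood at 4.27 and 5.49 FPKM for males at 27 h, 4.28 and 4.53 for females at 27 h, 3.62 and 3.66 for males at 3 h, 3.39 and 3.81 for females at 3 h and 1.52 and 1.00 in the PCN set. Smc4 passed in 27 h males at 0.0474 (adjusted p of the authors' deposited table) and missed by limma-voom with adjusted p = 0.155.

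In females 27 h after TCPOBOP, 6 of the 43 genes rose in the authors' deposited table and none fell, with 4.71% of all genes with reads called raised and 3.86% lowered. The 6 were Ect2, Cdc20, Nusap1, Ttk, Top2a and Prc1. The median log2 ratio of the 43 was 0.70 in the authors' deposited table, beside 0.00751 over the 14173 genes with a mean of at least 0.1 FPKM. The 2 treated pools were unlike: all 43 genes were higher in pool b than in pool a, with a median log2 difference of 0.96, while 51.2% of the 14406 genes fitted were higher in pool b. The female 27 h vehicle pools differed too, with 34 of the 43 higher in vehicle pool b and a median log2 difference of 0.35, beside 54.9% of the genes fitted. The treated pools are called pool a and pool b in what follows. Pool a summed to 28.7 FPKM over the 43 genes, level with vehicle pool a at 28.7, and pool b to 51.2. Cyp2b10 stood at 128 FPKM in pool a and 120 in pool b, a little lower where the mitotic genes were higher. Cyp3a11, which TCPOBOP also raises in these data, stood at 550.4 FPKM in pool a and 862 in pool b, higher with the mitotic genes. The sinusoidal endothelial markers summed to 51.8 and 69.2 FPKM in pools a and b, the stellate markers to 32.8 and 40.3 and the bile duct markers to 3.59 and 6.36, all higher in pool b. Hepatocyte markers summed to 1305 and 1392 FPKM and T and NK cell markers to 2.83 and 3.13, also higher in pool b. Kupffer markers, at 73.4 and 69.1 FPKM, and B and plasma cell markers, at 6.84 and 4.69, were lower in pool b. The part of these in the difference between the pools was not tested. Both treated pools were above both vehicle pools for 18 genes and below for 2, Plk1 and Cenpa, beside 25.6% and 32.6% of the genes fitted. limma-voom called Ect2, Prc1 and Ttk raised, beside 11.7% of the genes fitted, and 0 lowered, beside 10.8%. An unadjusted p below 0.05 was had by 13 of the 43, beside 35.6%. limma-voom called 24 of the 43 without treated pool a, 2 without treated pool b, and 1 without either vehicle pool.

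Top2a was one of the 6. It stood at 0.235 and 0.292 FPKM in the female 27 h vehicle pools and at 0.486 and 1.48 in the TCPOBOP pools. In males at 27 h it stood at 0.348 and 0.437 with vehicle and 2.13 and 1.56 with TCPOBOP. The female treated pool b was thus at the level of the lower male pool, and pool a lay between it and the vehicle pools, without overlap with them. Ttk stood at 0.0537 and 0.0954 FPKM with vehicle and 0.153 and 0.539 with TCPOBOP in 27 h females, and Prc1 at 0.369 and 0.541 with vehicle and 0.735 and 1.31 with TCPOBOP. The Kupffer markers of 27 h females stood at 70.3 and 124 FPKM with vehicle, summed over 7 genes, beside 73.4 and 69.1 in the treated pools, so vehicle pool b alone was high. The hepatocyte marker Serpina1a and the erythroid marker Alas2 were raised in 27 h females in the authors' deposited table, and the erythroid marker Klf1 was lowered. The part of these in the mitotic values was not tested.

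**Figure D4:**
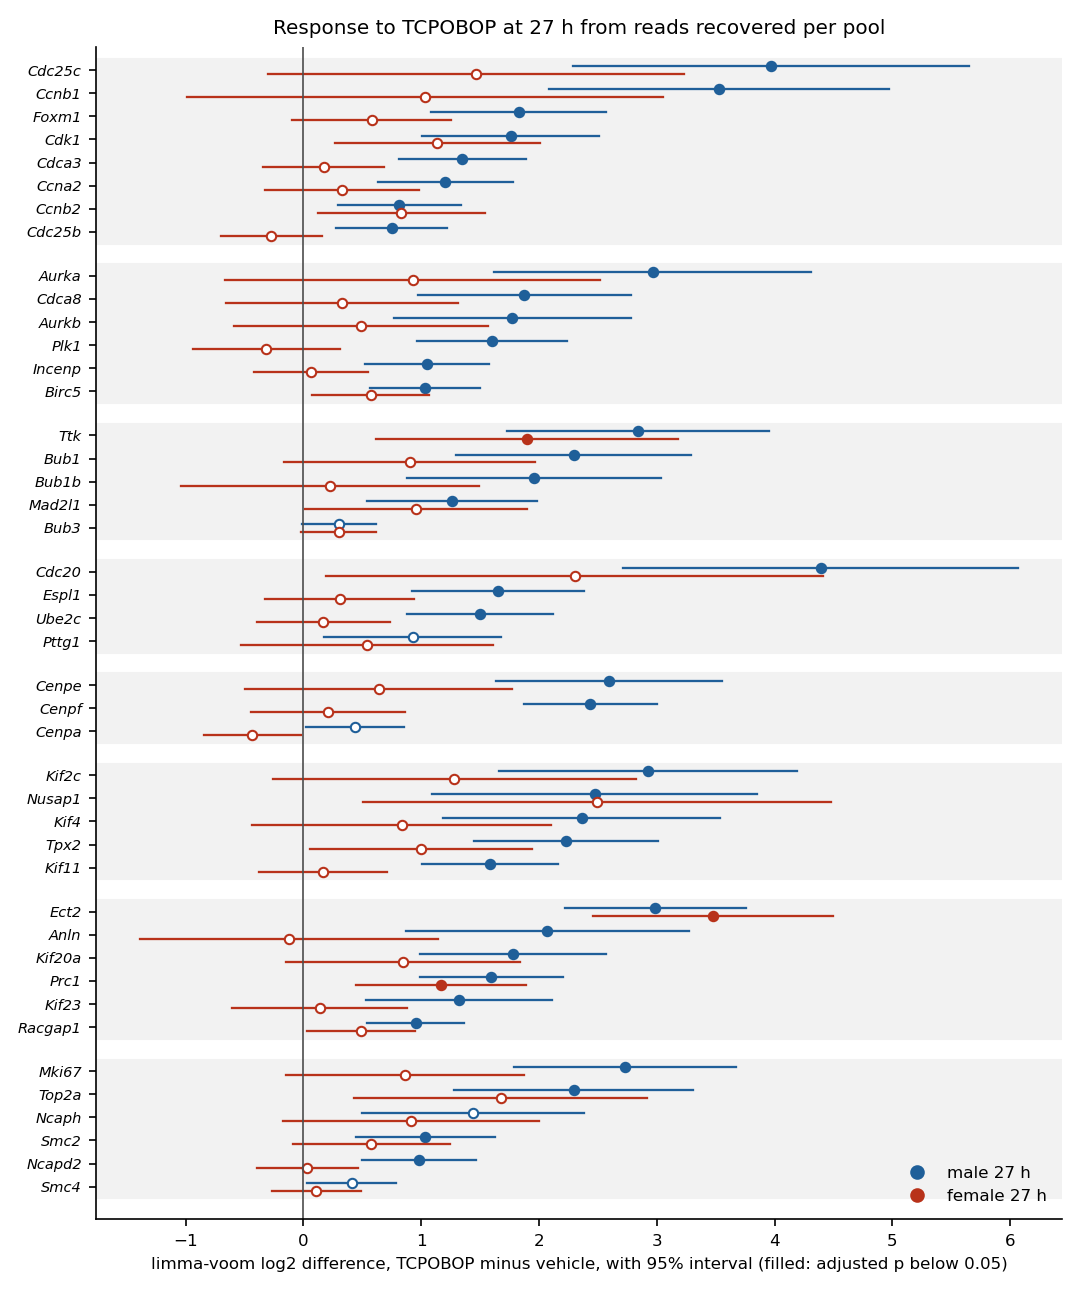
limma-voom log2 difference between TCPOBOP and vehicle at 27 h for the 43 genes, with its 95% interval, in males (blue) and females (red); filled points have an adjusted p below 0.05. In males 38 points are filled and in females 3, and the 2 points for Ect2 lie close together.

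In females 3 h after TCPOBOP, 12 of the 43 genes rose in the authors' deposited table and none fell, with 1.71% of all genes with reads called raised and 1.14% lowered. They were Cenpe, Ect2, Ccnb1, Kif2c, Mki67, Cdc20, Anln, Espl1, Cenpf, Tpx2, Top2a and Prc1. All 43 ratios were above 1 and their median log2 ratio was 0.87 in the authors' deposited table, beside -0.00655 over the 13975 genes with a mean of at least 0.1 FPKM. Of the genes not called, Nusap1 had 0.0511 and Birc5 0.0549 as adjusted p in the authors' deposited table. Both treated pools were above both vehicle pools for 34 of the 43, beside 15.4% of the genes fitted, and below for 0, beside 31.3%. Of the 43 genes, 40 were higher in treated pool a than in pool b, beside 52.9% of the genes fitted. limma-voom called 2, Ect2 and Cenpf, beside 1.24% of the genes fitted, and 0 lowered, beside 0.729%. An unadjusted p below 0.05 was had by 18 of the 43, beside 13%. limma-voom called 0 without treated pool a or without either vehicle pool, and 3 without treated pool b.

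Cenpe had the largest of these ratios, a log2 ratio of 2.07 in the authors' deposited table. Its pools stood at 0.0720 and 0.102 FPKM with vehicle and 0.502 and 0.191 with TCPOBOP in 3 h females. Both treated pools were higher, pool a more so than pool b. Cenpf stood at 0.143 and 0.140 FPKM with vehicle and 0.446 and 0.251 with TCPOBOP, and its limma-voom difference was 1.34 (SE 0.27, adjusted p = 0.0194). The Kupffer markers of 3 h females summed to 51.2 and 59.2 FPKM with vehicle and 61.1 and 82.3 with TCPOBOP, 1 of 7 was raised, and the higher sum was in pool b, where the mitotic genes were lower. The sinusoidal endothelial marker Lyve1 and the hepatocyte marker Serpina1a were raised too in the authors' deposited table, with log2 ratios of 0.85 and 0.75. The part of these in the mitotic values was not tested.

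In males 3 h after TCPOBOP, 0 of the 43 genes were called in the authors' deposited table, with 0.826% of all genes with reads called raised and 0.346% lowered. limma-voom called 0 as well, with 0.396% of the genes fitted called raised and 0.0278% lowered, and 3 of the 43 had an unadjusted p below 0.05, beside 6.98% of the genes fitted. The median log2 ratio was -0.20 in the authors' deposited table. Both treated pools were above both vehicle pools for 5 genes and below for 11, beside 19.3% and 15.5% of the genes fitted. Here too the 2 treated pools differed, with 38 of the 43 genes higher in pool b than in pool a and 47.8% of the genes fitted higher there. The treated pools summed to 23.7 and 30.3 FPKM, on either side of the vehicle pools at 27.7 and 27.6.

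The rise in males between 3 h and 27 h was tested as the difference between the responses at the 2 times, each against its own vehicle pools. limma-voom called 5 of the 43 genes, all with the larger response at 27 h, beside 0.257% of the genes fitted, and 38 of the 43 had an unadjusted p below 0.05, beside 13%. For Cenpf the difference of responses was 2.70 on the log2 scale (SE 0.38, adjusted p = 0.019 by limma-voom). Cenpe, Prc1, Ect2 and Cdc25c were the others. For Cenpe, Prc1 and Cdc25c the 3 h TCPOBOP pools were below their vehicle pools, which enters the difference. Cenpf stood at 0.184 and 0.201 FPKM with vehicle and 0.146 and 0.188 with TCPOBOP at 3 h, and at 0.112 and 0.116 with vehicle and 0.629 and 0.574 with TCPOBOP at 27 h. The 3 h groups overlapped and the 27 h groups were far apart. These 5 calls fell to 0 without treated pool a at 27 h, either vehicle pool at 27 h, treated pool a at 3 h or either vehicle pool at 3 h, to 1 without treated pool b at 27 h, and to 3 without treated pool b at 3 h. In females 0 of the 43 genes had a different response at 27 h and 3 h by limma-voom, with 1.58% of the genes fitted called, and 4 had an unadjusted p below 0.05, beside 17.5% of the genes fitted. It called 1 of the 43 when either treated pool at 27 h was left out.

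The difference between the sexes was not past the threshold for any of the 43 genes. At 27 h the response was smaller in females for 40 of the 43 genes, with a median difference of -1.18 on the limma-voom log2 scale. There 21 of the 43 had an unadjusted p below 0.05, beside 9.25% of the genes fitted, and 0.0347% of the genes fitted were called. Cenpf came closest, with a difference of -2.23 (SE 0.40, adjusted p = 0.0736 by limma-voom). For Ect2 the interval of the difference ran from -0.79 to 1.76, which leaves room for a difference in either direction. At 3 h the response was larger in females for 41 of the 43 genes, with a median difference of 1.12. There 16 of the 43 had an unadjusted p below 0.05, beside 6.97% of the genes fitted, and 0.00694% of the genes fitted were called. For Cenpe at 3 h the difference was 3.01 (SE 0.71, adjusted p = 0.34 by limma-voom).

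The vehicle pools were compared in the same fit. Between 3 h and 27 h vehicle males 0 of the 43 genes were called by limma-voom, with 8.1% of the genes fitted called, and 4 had an unadjusted p below 0.05, beside 24.9%. Between 3 h and 27 h vehicle females 5 were called, Espl1, Cenpa, Cdc25b and Incenp higher at 27 h and Bub3 lower, beside 42% of the genes fitted, and 6 had an unadjusted p below 0.05, beside 50.4%. Between vehicle females and males at 27 h 7 were called, with Ccnb2 lower in females and Espl1, Ncapd2, Plk1, Ube2c, Cdc25b and Incenp higher, beside 35.6% of the genes fitted, and 11 had an unadjusted p below 0.05, beside 45.4%. At 3 h 0 differed between the sexes, with 4.98% of the genes fitted called, and 1 had an unadjusted p below 0.05, beside 20.6%. The shares of members called are below those of all genes in each of these comparisons.

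With PCN more of the 43 genes were lower than higher. In males 3 h after PCN, 8 of the 43 genes fell and 1 rose in the authors' deposited table, with 6.3% of all genes with reads called lowered and 7.23% raised. The genes that fell were Ccnb1, Cdc20, Espl1, Mki67, Cenpf, Pttg1, Smc2 and Smc4, and Birc5 rose. The ratio was below 1 for 36 of the 43 and the median log2 ratio was -0.57 in the authors' deposited table, beside 0.00310 over the 13342 genes with a mean of at least 0.1 FPKM. The summed level was 17.1, 17.3 and 15.9996 FPKM in the vehicle pools and 11.8, 12.4 and 12.8 in the PCN pools. All 3 PCN pools were below all 3 vehicle pools for 19 genes and above them for 1, beside 31.4% and 8.15% of the 11817 genes fitted. Of the 38 members with enough reads to be fitted, limma-voom called the same 9 and Kif4, which fell, beside 7.95% of the genes fitted called lowered and 8.63% raised. The genes fitted leave out the most abundant ones of the PCN set, whose reads were not recovered. An unadjusted p below 0.05 was had by 17 of the 38, beside 30.5%. limma-voom called 4, 2 and 6 without PCN pool a, b or c, 4 without vehicle pool b, 7 without vehicle pool a and 10 without vehicle pool c.

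Mki67 had the smallest adjusted p of the genes lowered by PCN, 4.63e-10 in the authors' deposited table. Its pools stood at 0.399, 0.372 and 0.391 FPKM with vehicle and 0.162, 0.139 and 0.102 with PCN, and all PCN pools were below all vehicle pools. Ccnb1 had the largest fall, 0.221, 0.151 and 0.113 FPKM with vehicle and 0.0135, 0.0534 and 0.0424 with PCN, on 5 to 14 reads per vehicle pool and 1 to 3 per PCN pool. Cdc20 stood at 0.390, 0.611 and 0.383 with vehicle and 0.0879, 0.116 and 0.248 with PCN, and its span overlaps that of Elovl1 by 52 bases. Separase, Espl1, stood at 0.127, 0.178 and 0.0950 with vehicle and 0.0473, 0.0373 and 0.0444 with PCN, and securin, Pttg1, at 0.716, 0.879 and 0.695 with vehicle and 0.361, 0.356 and 0.254 with PCN. The protease and its inhibitor were thus both lower in every PCN pool. Cenpf stood at 0.0921, 0.0785 and 0.0755 with vehicle and 0.0310, 0.0223 and 0.0397 with PCN. The condensin core subunits were lower too, Smc2 at 0.225, 0.2997 and 0.237 with vehicle and 0.136, 0.104 and 0.0976 with PCN, and Smc4 at 1.39, 1.59 and 1.57 with vehicle and 0.968, 1.09 and 0.9501 with PCN. Smc4 hosts Mir15b and Mir16-2 within its span.

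Birc5 rose from 0.386, 0.524 and 0.492 FPKM in the vehicle pools to 0.689, 0.858 and 0.819 in the PCN pools, without overlap. Its limma-voom log2 difference was 0.93 (SE 0.19, adjusted p = 0.00461). Survivin, its protein, is both a passenger complex subunit and a member of the inhibitor of apoptosis family, and its partners in the complex did not pass the test: the log2 ratios in the authors' deposited table were -1.34 for Aurkb, -0.27 for Incenp and -0.50 for Cdca8. Among the genes that were not called, Ect2 stood at 0.124, 0.127 and 0.0893 FPKM with vehicle and 0.0762, 0.190 and 0.0477 with PCN, and the groups overlapped. Kif20a stood at 0.993, 1.02 and 1.14 with vehicle and 0.867, 0.887 and 1.02 with PCN, above its level of 0.312 and 0.352 in the male 3 h vehicle pools of the TCPOBOP set. The PCN libraries are labelled unstranded, so reads of Kif20a and of Cdc23 within their shared bases cannot be told apart.

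Of the cell type markers in the PCN set, Cd79a and Cd79b, the signalling chains of the B cell receptor, fell beside the mitotic genes. Cd79a went from 0.968 to 0.410 FPKM and Cd79b from 1.07 to 0.482 FPKM by the authors' means, and their adjusted p-values were 0.00865 and 0.0161 in the authors' deposited table. The hepatocyte markers had 4 of 6 raised, the sinusoidal endothelial markers 2 of 6 and the granulocyte markers 1 of 6, and 1 of 7 Kupffer markers, Cd5l, was lowered. 0 of the 5 T and NK cell markers were called in the authors' deposited table. The part of these in the fall of the mitotic genes was not tested. Among the markers of 27 h males, 3 of 6 sinusoidal endothelial genes, 1 of 7 Kupffer genes, 1 of 6 stellate genes and 1 of 6 hepatocyte genes were raised in the authors' deposited table, and their part in the mitotic values was not tested.

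A wider list of mitotic genes outside the 43 was counted in the same way. Of 66 matched genes, 43 rose in 27 h males, 9 rose and 1 fell in 27 h females, 3 rose in 3 h females, 0 were called in 3 h males and 6 fell with PCN, in the authors' deposited table. Of all genes with reads, 6.46% were raised and 4.92% lowered in 27 h males, and 4.71% and 3.86% in 27 h females. The same shares were 1.71% and 1.14% in 3 h females, 0.826% and 0.346% in 3 h males and 7.23% and 6.3% with PCN. These shares stand beside the counts of the lists that follow as well. In females 12 of the 43 genes rose at 3 h and 6 at 27 h. Gene by gene, limma-voom called 0 of the 43 for a different response at the 2 times, beside 1.58% of the genes fitted. Neither list was tested as a whole for the order of the 2 times. In 27 h males the smallest adjusted p belonged to Esco2, which joins sister chromatids by acetylating cohesin, with log2 ratio 2.72 and adjusted p = 1.06e-36 in the authors' deposited table. Casc5, a kinetochore scaffold, went from 0.0153 to 0.480 FPKM and Ckap2, a microtubule protein, from 0.143 to 1.48 FPKM by the authors' means. In 27 h females Nek2, a centrosome kinase, led with a log2 ratio of 2.32 and adjusted p = 0.000276 in the authors' deposited table. With PCN Cks2, a small partner of CDK1, fell from 6.80 to 3.46 FPKM by the authors' means, at an adjusted p of 0.000298 in the authors' deposited table. In 3 h females Kif20b, Ckap2l and Cdca2 were the 3 that rose.

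The core subunits of the anaphase-promoting complex, the partners of Cdc20 and Ube2c, were counted beside them. Of 14 subunits, 0 were raised in the 4 TCPOBOP comparisons in the authors' deposited table, Anapc2 fell in 27 h males and Anapc16 rose with PCN. By limma-voom 2 were raised and 3 lowered in 27 h females, beside 11.7% and 10.8% of the genes fitted, 1 was lowered in 27 h males and 1 raised with PCN.

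DNA replication genes moved at 27 h in both sexes. Of 23 genes, 16 rose and 1 fell in 27 h males and 10 rose and 2 fell in 27 h females in the authors' deposited table, with medians of the log2 ratio of 1.05 and 0.98. For the 43 mitotic genes the same medians were 1.78 and 0.70. Uhrf1, which carries DNA methylation through replication, rose from 0.299 to 1.41 FPKM in 27 h males and from 0.505 to 2.21 in 27 h females by the authors' means. At 3 h 0 of the 23 were called in either sex in the authors' deposited table, while 12 mitotic genes were called in 3 h females. With PCN 1 rose and 2 fell. Whether the 2 lists differed between the sexes was not tested as lists.

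Genes of G1 entry and brakes of the cycle were called at both times. Of 14 G1 genes, 1 rose in males and 3 in females at 3 h, and 5 rose in males and 4 in females at 27 h, in the authors' deposited table, and none fell with TCPOBOP. With PCN 2 rose and 2 fell. E2f2, an E2F transcription factor, was called in all 5 comparisons, raised in the 4 with TCPOBOP and lowered with PCN, where its log2 ratio was -1.74 in the authors' deposited table. Of 11 inhibitors and G2 brakes, 2 rose and 2 fell in 3 h males, 3 rose in 3 h females, 4 rose and 3 fell in 27 h males, 2 rose and 2 fell in 27 h females, and 4 rose and 2 fell with PCN, in the authors' deposited table. Gadd45b, listed among these brakes, rose in all 5 comparisons in the authors' deposited table. Its log2 ratios there were 3.54 (males) and 3.88 (females) at 3 h, 5.27 (males) and 5.30 (females) at 27 h and 5.76 with PCN. Gadd45b rose where mitotic genes rose, in 3 h males where 0 of the 43 were called, and with PCN where 8 fell and 1 rose. Its part in the mitotic values was not tested. Cdkn1a, the p21 inhibitor, rose in 3 h females and fell in 27 h males in the authors' deposited table, from 3.81 to 1.399 FPKM in the latter by the authors' means. Gadd45a rose in the 5 comparisons as well in the authors' deposited table. Their relative Gadd45g went the other way with TCPOBOP in 3 h males and 27 h females, with log2 ratios of -1.05 and -2.63, and rose with PCN at 1.33, in the authors' deposited table.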

How the data were processed

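RNA of liver nuclei from 22 pools of mice was sequenced. Per the submitters' processing notes, reads were mapped to mm9 with TopHat2, and HTSeq 0.6.1p1, featureCounts 1.4.6-p5 and edgeR are named as further tools with no role given. Per the file headers, the authors deposited for each comparison a linear ratio of treated over vehicle, the mean FPKM of each group and an adjusted p-value. The ratio is not the quotient of the mean FPKM of the groups. How the adjusted p-value of the authors was adjusted is not given in the sources used here. The notes on strand differ: the TCPOBOP libraries are labelled stranded and the PCN libraries unstranded, while the protocol names a directional kit.

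The analysis was planned for counts, but the table holds no counts, so the calls are those of the authors' adjusted p below 0.05 with the direction of the ratio. Whole reads per pool were recovered because a mean FPKM is a sum of whole reads over counted length and depth. Depths came from repeated values in 3335 genes spanning under 1500 bp. The counted length of a gene is an annotated transcript length or its span, where one gives whole reads in every TCPOBOP-set group. Otherwise it is the smallest from 60 to 25000 bp that does so. The PCN-set groups did not enter the choice of length. Of the 19422 genes above 0, this gave reads in all 16 TCPOBOP-set pools for 87.6% and in all 6 PCN-set pools for 80.5%. In the PCN set no search was made above about 2000 reads of a gene in a group. The most abundant genes, among them all 6 hepatocyte markers, are therefore absent from the PCN fit and its shares. The recovery and the fit were checked on simulated data. There 96% of 1500 genes were given a length, and 99.8% of those had every read count of the 16 pools returned. With the male 27 h TCPOBOP comparison, the fit called 25% of genes changed 2-fold and 95% of those changed 4-fold. With the PCN comparison it called 37% and 100%. In each of the 2 comparisons 8 unchanged genes were called. Most 2-fold changes were thus missed by the fit. The length need not be the authors' own, and it equals an annotated transcript length or the span of the gene for 5 of the 43. Where the true length is a multiple of it, the true reads are the same multiple and the FPKM are the same.

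limma-voom (limma 3.58.1, R 4.3.3) used genes with a mean of at least 5 recovered reads, scaling by medians of ratios, and all pools of a set share 1 estimate of spread. Confidence intervals are at 95%. Figures were drawn with matplotlib 3.10.9. The genes with values in every group are those called in at least 1 comparison, and other lists are given by counts and at most 3 called genes of smallest adjusted p. Genes named outside that rule were chosen after their values were seen. The 43 genes, the other lists and the tests were chosen with earlier results of these data known. Alternatives were other adjusted p and fold thresholds, FPKM minimums, pseudocounts, scalings, read minimums and leaving out each pool. A marker result is not reported here.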

Additional observations from a re-analysis of the deposited data

Results flagged for a closer look

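For 5 of the 43 genes the response to TCPOBOP in males differed between 27 h and 3 h, as a difference of 2 responses in the limma-voom fit adjusted over 14406 genes. The difference, 27 h minus 3 h on the log2 scale, was 2.70 for Cenpf, 3.62 for Cenpe, 2.28 for Prc1, 2.72 for Ect2 and 5.65 for Cdc25c. The adjusted p by limma-voom was 0.0190 for Cenpf and 0.0489 for each of the others, just inside the threshold. Cdc25c rests on 1 to 10 reads in every male pool of the TCPOBOP set but the 27 h TCPOBOP pools, which had 31 and 25. In each of the 5 genes the 27 h TCPOBOP pools were above the vehicle pools. The 3 h TCPOBOP pools were below their vehicle pools for Cdc25c, Cenpe and Prc1, with limma-voom log2 differences of -1.68, -1.03 and -0.69. These 3 h falls enter the difference of responses. The male vehicle level, 27 h minus 3 h, was -2.55 for Cdc25c, -1.22 for Cenpe, -0.85 for Cenpf, -0.77 for Ect2 and -0.46 for Prc1, none of them called. The number of genes called fell to between 0 and 3 when any 1 pool was left out.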

How the results depend on the processing

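No called value changed direction under the alternatives run. The list was also restricted to genes with a mean of at least 1 FPKM over the vehicle and treated groups of a comparison. That left 0 called in 3 h females, 14 in 27 h males, 0 in 27 h females and 1 with PCN. Few of the genes reach that level. A raised gene can pass it through its treated group alone, as Cdc20 did in 27 h males at 0.273 and 5.03 FPKM. These counts are therefore no check on the calls. limma-voom called 2 in 3 h females and 3 in 27 h females, and the cause was not tested. The median log2 ratio with a pseudocount of 0.1 FPKM was 0.57 in 3 h females, 1.44 in 27 h males and -0.45 with PCN. With PCN it was -0.70 at a pseudocount of 0.01 and -0.42 over genes with a mean of at least 0.1 FPKM. Scaled to mapped fragments, 1 gene differed in response between 27 h and 3 h in males, and the cause was not tested. With 1 pool left out, limma-voom called 0 to 3 genes in 3 h females, 8 to 31 in 27 h males, 1 to 24 in 27 h females and 2 to 10 with PCN. The counts for a different response at 27 h and 3 h were 0 to 3 in males and 0 to 1 in females. Another 61 settings of these results stayed on the same side. No paired analysis was possible because the recovered pools carry no pool number. Depth limits the rarest genes: most vehicle levels rest on few reads per pool, and 2 pools per group bound the precision of every TCPOBOP value.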
